A study of Mus musculus with 14 samples.

Results

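The 10 genes described here encode the machinery that stores and releases triglyceride in lipid droplets of heart muscle cells: the ester hydrolase Ces1d, the lipases Pnpla2, Lipe and Mgll, the lipase inhibitor G0s2, the droplet coat proteins Plin2, Plin4 and Plin5, and the acyltransferases Dgat1 and Dgat2. They were taken by symbol from the deposited count table, as 10 of its 23337 genes, and each symbol matched 1 entry. The members were selected on the KO against Ctrl fold changes and calls of these same libraries, which were known when the list was proposed, so the members' values in that contrast are given as a description, with no test of their own. Poly(A) RNA was sequenced from cardiomyocytes of Rosa-Cas9GFP mice, a line with Cas9 and GFP inserted at Rosa. The KO group received AAV-Ryr2gRNA, an adeno-associated virus named for a guide RNA against Ryr2, and the Ctrl group received AAV-Cre, named for the Cre recombinase (n = 7 each). Mice of both groups were injected on postnatal day 1 and their hearts were used at 4 weeks of age, when cardiomyocytes were freed by Langendorff perfusion and sorted by FACS. The labels name Cre for the Ctrl virus alone, so what the guide did and what the virus did cannot be told apart.

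Fatty acids that enter a heart muscle cell are either burned in mitochondria or esterified to triglyceride and kept in small droplets, and the droplets are then broken down stepwise. Pnpla2 (adipose triglyceride lipase) removes the first fatty acid, Lipe (hormone-sensitive lipase) acts mainly on the resulting diglyceride, and Mgll (monoglyceride lipase) on the monoglyceride. G0s2 inhibits Pnpla2, and perilipins coat the droplet and control the lipases' access to it. Ces1d is a carboxylesterase that hydrolyses triglyceride and other esters in the endoplasmic reticulum and at droplets, known best from mouse liver and adipose tissue. Dgat1 and Dgat2 catalyse the last step of triglyceride synthesis.

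Library totals lay between 5689335 and 13165662 counts. Ryr2, the targeted gene, averaged 309 ± 48.1 CPM (counts relative to library size, TMM-scaled) in KO and 675 ± 71.4 CPM in Ctrl libraries (SD, n = 7 each), a log2 fold change of -1.13 (edgeR quasi-likelihood test, adjusted p = 3.3e-07; two-sided exact permutation test, p = 0.00058). The groups did not overlap for Ryr2, with 225 to 371 CPM in KO and 602 to 763 CPM in Ctrl libraries. Cardiomyocyte markers were abundant, with summed levels over 9 genes of 71172 to 96913 CPM in KO and 89384 to 104722 CPM in Ctrl libraries. Myh6 alone averaged 47618 CPM in KO and 49677 CPM in Ctrl libraries. Of the 9 genes, 5 were called lower in KO (Tnnt2, Tnni3, Pln, Myl2 and Myl3). Libraries numbered 7 to 10 in their names (KO4, KO5, Ctrl4 and Ctrl5) stood apart by their markers of other cells. Summed macrophage markers reached 455 and 302 CPM in KO4 and KO5, and 115 and 121 CPM in Ctrl4 and Ctrl5, against 62.3 to 103 CPM in the other KO and 25.0 to 61.2 CPM in the other Ctrl libraries, and 4 of the 10 tested macrophage markers (Emr1, C1qb, Lyz2 and Ctss) were called higher in KO. Fold changes are therefore also given within those 4 libraries and within the other 10. Across all genes 3149 of 11170 tested were called at an adjusted p under 0.05 (28.2%), 1528 of them lower in KO (13.7%) and 1621 higher (14.5%). On total counts in place of TMM the split was 852 lower and 3064 higher.

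Sequences of the start regions were available for 7 members in RefSeq (GRCm38.p6, the build the counts use), and the 3 coat genes are shown because Plin5 and Plin4 lie side by side on chromosome 17 and both were called lower, while Plin2 was not called. Each window runs from 250 bases before to 50 bases after a RefSeq start site, on the minus strand, as chr17:56117499-56117798 for Plin5, chr17:56109733-56110032 for Plin4 and chr4:86670010-86670309 for Plin2. Capitals mark AGGTCA or its reverse complement TGACCT, the half-site that nuclear receptors such as PPARα bind, and CACGTG, the palindromic E-box.
Plin5: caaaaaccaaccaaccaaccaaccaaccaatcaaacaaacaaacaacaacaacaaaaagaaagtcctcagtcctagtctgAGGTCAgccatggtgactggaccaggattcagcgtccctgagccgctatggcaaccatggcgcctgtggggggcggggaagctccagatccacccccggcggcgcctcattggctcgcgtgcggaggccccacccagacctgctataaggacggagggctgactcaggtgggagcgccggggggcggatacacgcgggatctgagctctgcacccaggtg
Plin4: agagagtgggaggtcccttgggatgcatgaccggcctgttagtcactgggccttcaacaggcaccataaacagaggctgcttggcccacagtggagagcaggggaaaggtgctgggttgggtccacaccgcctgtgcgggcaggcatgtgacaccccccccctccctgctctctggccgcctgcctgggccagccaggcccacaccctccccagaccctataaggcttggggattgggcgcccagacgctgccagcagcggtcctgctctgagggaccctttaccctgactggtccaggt
Plin2: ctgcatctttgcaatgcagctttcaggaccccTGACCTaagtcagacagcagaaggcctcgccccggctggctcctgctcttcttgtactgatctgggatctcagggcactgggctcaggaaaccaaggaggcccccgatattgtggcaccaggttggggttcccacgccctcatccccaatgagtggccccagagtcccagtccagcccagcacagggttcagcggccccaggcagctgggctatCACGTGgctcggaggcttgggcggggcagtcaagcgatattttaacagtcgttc
AGGTCA was found 170 bases before the start site of Plin5 on the gene's strand and 218 bases before that of Plin2 on the other strand, and not in the Plin4 window. The second RefSeq window of Plin5 also held 1 copy, so that 3 of the 10 windows of the 7 members held it, from 2 genes. Of all 32851 mouse windows of this length, 16.3% held AGGTCA on either strand. CACGTG began 4 bases before the start site of Plin2 and ran across it. The motif began 44 bases before the start site of Mgll and 155 before that of Lipe, and 7.15% of all windows held it. The longer element TCAAGGTCA, bound by oestrogen-related receptors, and TGATGCAA, a composite element bound by ATF4, were in 0 of the members' windows and in 0.423% and 0.895% of all windows. These motifs can overlap, since TCAAGGTCA contains AGGTCA. The RefSeq windows of Pnpla2 and G0s2 held none of these motifs. Ces1d, Dgat1 and Dgat2 were not matched. A match is a run of letters and no measure of binding, and no test was made. AGGTCA was found in 1 called and 1 uncalled member, and CACGTG in 3 members that were not called.

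All 10 members were tested, 5 were called lower in KO (Ces1d, Pnpla2, Plin4, Plin5 and Dgat2) and 0 were called higher (also 0 at an unadjusted p under 0.05 and 0 by DESeq2), beside 13.7% and 14.5% of all genes tested. Lipe, Mgll, G0s2, Plin2 and Dgat1 were not called. The median log2 fold change of the members was -0.24, beside 0.01 over all genes tested, and 8 of 10 had a negative value. The groups did not overlap for 2 members, Ces1d and Dgat2, beside 10.5% of all genes tested. Since this contrast chose the members, nothing is read from these shares. The split depended on scaling in part. On total counts in place of TMM, Pnpla2 was not called (log2 fold change -0.12) and Dgat1 was called higher (0.21), and that scaling moved the median over all genes to 0.15. In RNA from a bulk sample, fewer cells of a type and less RNA per cell cannot be told apart.

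**Figure D1:**
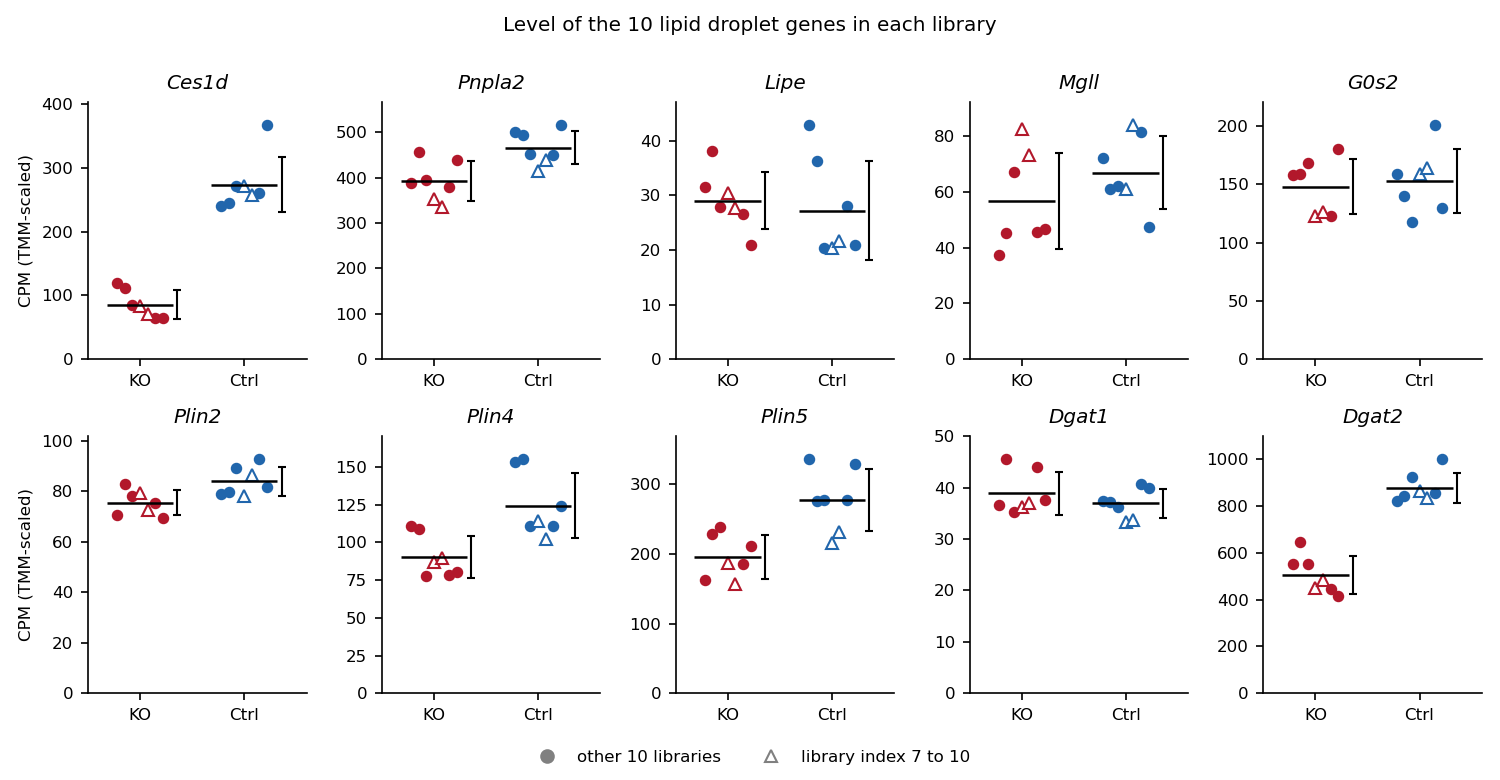
CPM of each member (TMM-scaled, linear axis from 0) in the 7 KO libraries (red, left) and the 7 Ctrl libraries (blue, right); open triangles are the libraries numbered 7 to 10, horizontal lines the mean and vertical bars the SD. All KO points lie below all Ctrl points for Ces1d and Dgat2, whereas the ranges overlap for the other 8 members.

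Ces1d (chromosome 8, 93166072 to 93197804, minus strand, 14 exonic blocks, mm10) changed most among the members. Its level was 64.2, 83.6 and 119 CPM (lowest, median and highest) in KO libraries, against 240, 261 and 367 CPM in Ctrl libraries. The 2 groups stood well apart, with the highest KO library below the lowest Ctrl library. KO1 and KO2 had the highest KO values (119 and 112 CPM), and Ctrl7 had the highest Ctrl value, the next being 272 CPM in Ctrl4. The fitted log2 fold change was -1.68 (SE 0.14), or 31.3% of the Ctrl level, and it ranked 6 from the bottom among the 11170 genes tested. It was -1.83 (SE 0.11) within the 4 libraries numbered 7 to 10 and -1.64 (SE 0.18) within the other 10. Leaving out Ctrl7 gave -1.60.

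Ces1d has close relatives in a gene cluster, and reads of near-identical copies can be assigned to the wrong one. Of the 7 Ces1 genes in the table, 4 had a count in any library. Ces1d held 98.8% of the Ces1 counts in KO and 99.6% in Ctrl libraries, with 4520 and 13851 reads. Ces1e had 49 reads in KO and 48 in Ctrl libraries, Ces1a had 3 and 0, and Ces1b had 1 and 3. The remaining Ces1 genes of the table (Ces1c, Ces1f and Ces1g) were at 0 in all 14 libraries. Of the 17 other carboxylesterase genes in the table, 2 passed the filter on low counts, and both were called higher in KO: Ces2g averaged 3.07 ± 1.21 CPM in KO and 0.711 ± 0.347 CPM in Ctrl libraries (log2 fold change 2.11, SE 0.34, edgeR quasi-likelihood adjusted p = 1.9e-04), and Esd, a soluble esterase that acts on S-formylglutathione, averaged 160 ± 25.0 and 109 ± 5.78 CPM (0.55, SE 0.08, adjusted p = 9.5e-05). The Ces2g call rests on a low level, 170 reads over the KO and 36 over the Ctrl libraries. Ces2g passed the filter mainly through its KO values, so its entry into the test favoured a higher call. The 2 calls stand beside 14.5% of all genes tested that were called higher, and nothing is read from them about the list. With no filter on low counts, 4 genes of the list were called higher and 0 lower.

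Of the 3 lipases, Pnpla2 was called lower and the others were not called. Pnpla2 (chromosome 7, 141455188 to 141460743, plus strand, 10 exonic blocks) had 335, 388 and 457 CPM (lowest, median and highest) in KO libraries, against 415, 453 and 516 CPM in Ctrl libraries. The ranges overlapped, with 5 KO libraries below the lowest Ctrl library and KO2 and KO7 inside the Ctrl range. The log2 fold change was -0.25 (SE 0.07), or 84.1% of the Ctrl level, with -0.35 within the libraries numbered 7 to 10 and -0.23 within the other 10.

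Lipe (chromosome 7, 25379527 to 25395987, minus strand, 11 exonic blocks) had 21.0, 27.9 and 38.2 CPM in KO libraries, against 20.3, 21.6 and 42.9 CPM in Ctrl libraries. The Ctrl values were spread, since Ctrl1 and Ctrl2 had 42.9 and 36.3 CPM while the others lay between 20.3 and 28.1 CPM. Lipe was not called, with a log2 fold change of 0.08 and a 95% interval from -0.30 to 0.45, which includes changes in either direction. The value was 0.42 (SE 0.15, not called) within the libraries numbered 7 to 10 and -0.06 within the other 10. Lipe shares 453 of its 3266 exonic bases with 4732471J01Rik on the other strand, and reads of the shared stretch cannot be assigned without strand; that gene averaged 0.258 CPM in KO and 0.223 CPM in Ctrl libraries.

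Mgll (chromosome 6, 88724412 to 88828360, plus strand, 10 exonic blocks) was the most variable member among KO libraries, with a coefficient of variation of 30.4% in KO and 19.4% in Ctrl libraries. It had 37.3, 46.7 and 82.6 CPM in KO libraries, against 47.3, 62.0 and 84.0 CPM in Ctrl libraries. The KO values split into 4 libraries between 37.3 and 46.7 CPM, all below the lowest Ctrl library, and 3 libraries (KO3, KO4 and KO5) between 67.0 and 82.6 CPM. Mgll was not called, with a log2 fold change of -0.24 and a 95% interval from -0.60 to 0.12. The value was 0.06 (SE 0.15) within the libraries numbered 7 to 10 and -0.42 (SE 0.16, not called) within the other 10. KO4 and KO5, which had the most Mgll among KO libraries, also had the highest summed fibroblast markers (1289 and 1171 CPM) and macrophage markers, whose part in the Mgll values was not tested.

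G0s2 (chromosome 1, 193272160 to 193273188, minus strand, 2 exonic blocks), the inhibitor of Pnpla2, had 123, 158 and 180 CPM in KO libraries, against 118, 159 and 201 CPM in Ctrl libraries. The KO range lay within the Ctrl range. It was not called, with a log2 fold change of -0.05 and a 95% interval from -0.29 to 0.19, and its sign was positive on total counts (0.07). The sets of libraries differed in direction: KO4 and KO5 had 123 and 126 CPM against 159 and 164 CPM in Ctrl4 and Ctrl5 (log2 fold change -0.42, SE 0.10, called lower within these 4), whereas the other 10 gave 0.07 (SE 0.13, not called). The difference between the sets was not tested.

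**Figure D2:**
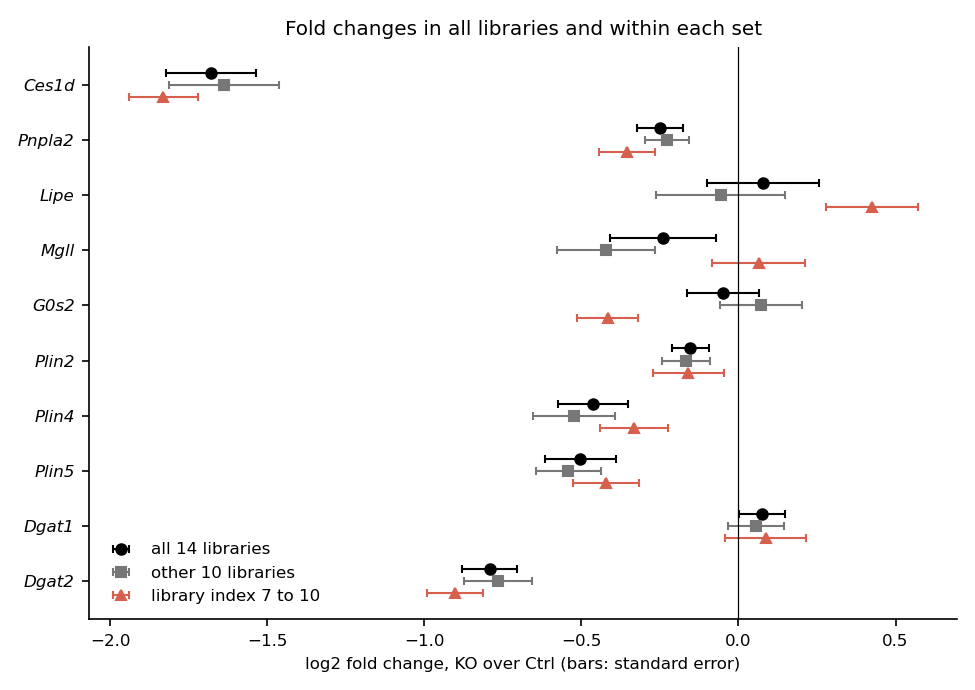
Log2 fold change of each member (KO over Ctrl, x axis) with its standard error from edgeR, for all 14 libraries (black circles), the 10 libraries outside numbers 7 to 10 (grey squares) and the 4 libraries numbered 7 to 10 (red triangles). Ces1d, Dgat2, Plin5, Plin4, Pnpla2 and Plin2 lie below 0 in all 3 fits, and Lipe, Mgll and G0s2 change sign between the sets.

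Of the 3 coat genes, Plin5 and Plin4 were called lower and Plin2 was not called. Plin5 (chromosome 17, 56111601 to 56117548, minus strand, 9 exonic blocks), the perilipin of oxidative tissues such as the heart that ties droplets to mitochondria, had 157, 187 and 239 CPM in KO libraries, against 216, 277 and 336 CPM in Ctrl libraries. The ranges overlapped through KO2 and KO3, while the other 5 KO libraries lay below the lowest Ctrl library. Its log2 fold change was -0.50 (SE 0.11), or 70.6% of the Ctrl level, with -0.42 within the libraries numbered 7 to 10 and -0.54 within the other 10.

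Plin4 (chromosome 17, 56100591 to 56109802, minus strand, 9 exonic blocks), a perilipin found on nascent droplets of adipocytes and muscle, had 77.9, 87.0 and 111 CPM in KO libraries, against 102, 114 and 155 CPM in Ctrl libraries. KO1 and KO2 were highest within KO (111 and 109 CPM) and Ctrl1 and Ctrl2 highest within Ctrl (153 and 155 CPM), and 5 KO libraries lay below the lowest Ctrl library. The log2 fold change was -0.46 (SE 0.11), or 72.6% of the Ctrl level, and within the libraries numbered 7 to 10 it was -0.33 and not called. Plin4 starts 1799 bases beyond the end of Plin5, on the same strand, and 6 of its 5755 exonic bases are shared with Hdgfrp2, a gene that averaged 59.2 CPM in KO and 58.2 CPM in Ctrl libraries.

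Plin2 (chromosome 4, 86656565 to 86670059, minus strand, 8 exonic blocks), a coat protein present on droplets of most cell types, had 69.4, 75.1 and 82.7 CPM in KO libraries, against 78.2, 81.8 and 92.6 CPM in Ctrl libraries. The values were tight, with a coefficient of variation of 6.58% in KO and 6.74% in Ctrl libraries, and 5 KO libraries lay below the lowest Ctrl library. Plin2 was not called, with a log2 fold change of -0.15 (95% interval from -0.28 to -0.03). On total counts the value was -0.02 and Plin2 was not called there either. In the main fit Plin2 lies near the threshold. The DESeq2 Wald test on the same genes called it lower (-0.16), as did the authors' deposited table (log2 fold change -0.16). That table gave Ces1d, Pnpla2, Plin4, Plin5 and Dgat2 as lower too, with log2 fold changes of -1.69, -0.26, -0.47, -0.51 and -0.80, and 0 members as higher.

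The 2 enzymes of the last step of triglyceride synthesis differed. Dgat2 (chromosome 7, 99153663 to 99182713, minus strand, 8 exonic blocks) had 416, 483 and 645 CPM in KO libraries, against 818, 856 and 998 CPM in Ctrl libraries. Every KO library lay below every Ctrl library. The log2 fold change was -0.79 (SE 0.09), or 57.8% of the Ctrl level, with -0.90 within the libraries numbered 7 to 10 and -0.77 within the other 10. Dgat1 (chromosome 15, 76502015 to 76511818, minus strand, 17 exonic blocks) had 35.2, 37.0 and 45.5 CPM in KO libraries, against 33.3, 37.1 and 40.6 CPM in Ctrl libraries. The ranges overlapped, with KO2 and KO6 above the highest Ctrl library. Dgat1 was not called, with a log2 fold change of 0.08 and a 95% interval from -0.08 to 0.23.

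Levels were compared between genes per length, as TPM (counts divided by exonic length and scaled to the same sum in every library), within each group. In KO libraries Dgat2 was highest (482 ± 72.2 TPM; SD, n = 7 here and for each value of the order), followed by G0s2 (374 ± 38.3 TPM) and Pnpla2 (309 ± 21.5 TPM). Plin5 (205 ± 22.3 TPM) came before Ces1d (93.4 ± 23.8 TPM) and Plin2 (85.9 ± 8.20 TPM). The lowest were Dgat1 (47.6 ± 5.74 TPM), Plin4 (33.8 ± 5.87 TPM), Mgll (26.7 ± 9.50 TPM) and Lipe (19.2 ± 3.72 TPM). Ctrl libraries had the same first 3 genes, Dgat2 (732 ± 45.9 TPM), G0s2 (344 ± 73.1 TPM) and Pnpla2 (323 ± 11.5 TPM). Ces1d (262 ± 34.3 TPM) came there before Plin5 (255 ± 29.1 TPM) and Plin2 (83.8 ± 7.43 TPM). The lowest in Ctrl libraries were Plin4 (40.6 ± 6.36 TPM), Dgat1 (39.6 ± 2.47 TPM), Mgll (27.4 ± 5.98 TPM) and Lipe (15.7 ± 4.98 TPM). Ces1d stood beside Plin5 in Ctrl libraries, where their ranges overlapped, and beside Plin2 in KO libraries, where it was above Plin2 in 4 of 7. Other neighbours whose ranges overlapped were G0s2 and Pnpla2, Plin4 and Dgat1, and Mgll and Lipe in both groups, Dgat2 and G0s2 and also Plin4 and Mgll in KO, and Pnpla2 and Ces1d in Ctrl libraries. Within single KO libraries, G0s2 was above Pnpla2 and Dgat1 above Plin4 in 7 of 7. Dgat2 was above G0s2 in 6, Mgll above Lipe in 5 and Plin4 above Mgll in 4. Within single Ctrl libraries, Pnpla2 was above Ces1d and Mgll above Lipe in 7 of 7. There G0s2 was above Pnpla2 in 4, Ces1d above Plin5 in 4 and Plin4 above Dgat1 in 3. TPM values are not compared between the groups as levels, since the median gene was 0.21 higher in KO on the log2 TPM scale.

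**Figure D3:**
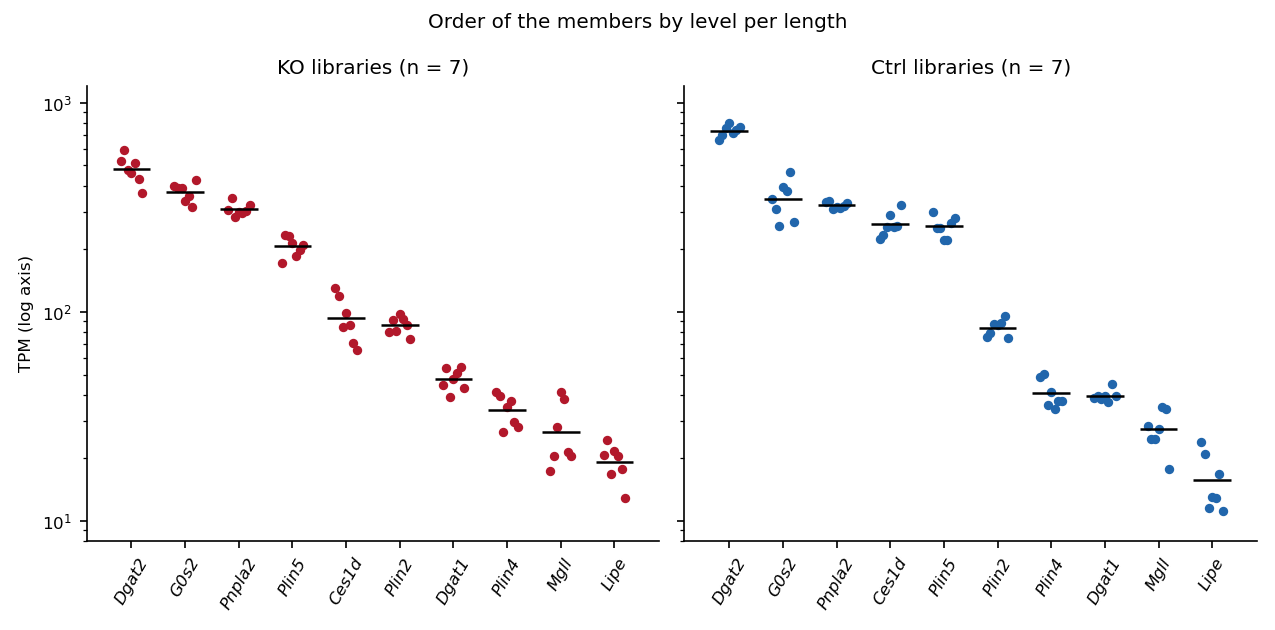
TPM of the 10 members in each KO library (left panel, red) and each Ctrl library (right panel, blue) on a log axis, ordered by the group's mean (horizontal line). Dgat2 leads and Lipe is last in both panels, and Ces1d has rank 5 in KO and rank 4 in Ctrl libraries.

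Ratios and shares within a library do not depend on its scaling. The TPM ratio of Ces1d to Pnpla2 averaged 0.302 ± 0.0729 in KO and 0.812 ± 0.113 in Ctrl libraries (SD, n = 7 each), with ranges of 0.202 to 0.424 in KO and 0.662 to 0.983 in Ctrl libraries. The ratio of Dgat2 to Dgat1 averaged 10.2 ± 1.58 in KO and 18.5 ± 1.47 in Ctrl libraries, with ranges of 7.88 to 12.2 and 16.4 to 20.1. Neither pair of ranges overlapped. The ratio of Plin5 to Plin2 was 2.40 ± 0.333 in KO and 3.08 ± 0.568 in Ctrl libraries. That of Pnpla2 to its inhibitor G0s2 was 0.831 ± 0.0839 in KO and 0.974 ± 0.207 in Ctrl libraries. The neighbours Plin4 and Plin5 had a ratio of 0.168 ± 0.0423 in KO and 0.160 ± 0.0248 in Ctrl libraries, and Lipe to Pnpla2 one of 0.0621 ± 0.0112 and 0.0482 ± 0.0139. The ranges of these last 4 ratios overlapped between the groups. Of the summed TPM of the 10 members, Ces1d made up 5.52% ± 1.11 in KO and 12.3% ± 1.44 in Ctrl libraries, Dgat2 28.6% ± 2.56 and 34.5% ± 1.94, and G0s2 22.4% ± 2.44 and 16.2% ± 2.90. A ratio shows that members changed unequally, not that either stayed as it was.

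**Figure D4:**
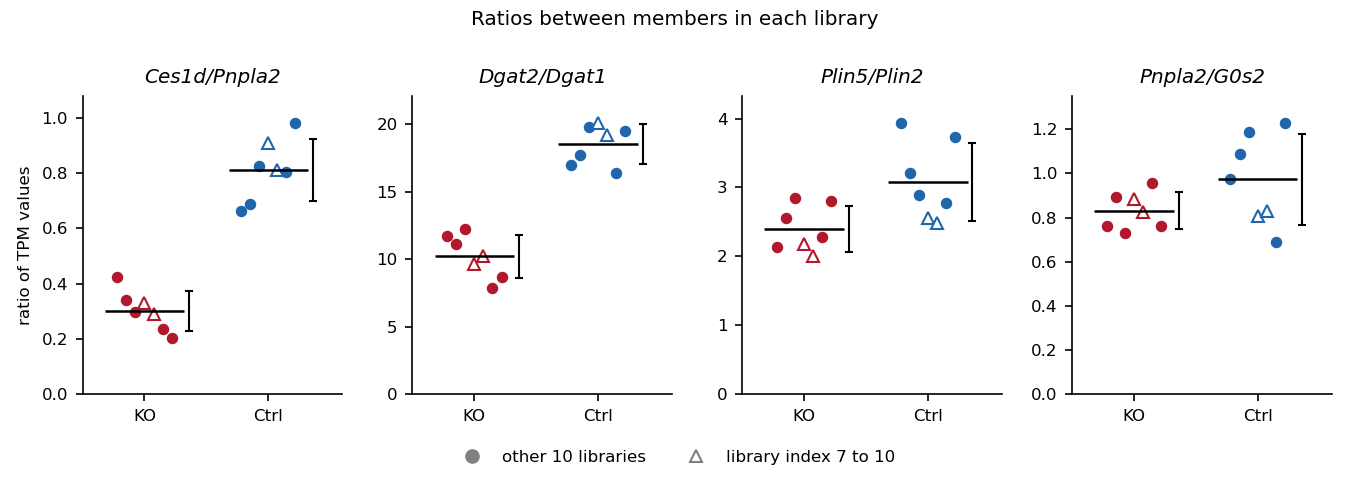
TPM ratio between pairs of members (y axis from 0) in each KO library (red, left) and Ctrl library (blue, right); open triangles are the libraries numbered 7 to 10, horizontal lines the mean and vertical bars the SD. The groups separate for Ces1d/Pnpla2 and Dgat2/Dgat1 and overlap for Plin5/Plin2 and Pnpla2/G0s2.

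The rest of the pathway was described from 6 lists of other genes, written with earlier results of these data known. Of their 96 distinct genes tested, 36 (37.5%) were called lower and 7 (7.29%) higher in KO, beside 13.7% and 14.5% of all genes tested, with a median log2 fold change of -0.12, beside 0.01 over all genes tested. On total counts 26 were called lower and 17 higher. In the main fit, the list of PPAR-responsive heart genes held 29 of the 96 genes and 16 of the 36 lower calls. Many of its genes act in fatty acid oxidation rather than at droplets. The counts of each list stand beside the same shares of all genes, and the 2 higher of 15 and the 2 higher of 14 in the hydrolysis and coat lists lie near the share called higher. The lists are given here by the members' roles, with p-values from the edgeR quasi-likelihood test adjusted over all genes tested.

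Among 15 tested genes of triglyceride and ester hydrolysis, 4 fell, 2 rose and 9 were not called (median -0.03). The count of lower over higher calls turned with the scaling, with 2 lower and 3 higher on total counts, and was 2 and 0 within the libraries numbered 7 to 10. Lpl, which frees fatty acids from circulating lipoproteins, fell to 4150 ± 363 CPM in KO, against 5612 ± 623 CPM in Ctrl libraries (log2 fold change -0.44, adjusted p = 5e-04). Nceh1, a neutral cholesterol ester hydrolase, fell by 0.31 on the log2 scale (adjusted p = 0.0022). Abhd5, the co-activator of Pnpla2 that Plin5 can hold at the droplet, averaged 69.4 ± 5.44 CPM in KO and 80.3 ± 5.35 CPM in Ctrl libraries (-0.21, adjusted p = 0.018), and it was not called on total counts (-0.08) or within the libraries numbered 7 to 10 (-0.21). Pnpla3 was called lower (-0.45, adjusted p = 0.024) at 6.27 CPM in KO and 8.54 CPM in Ctrl libraries, and the call was lost without KO4 or without Ctrl1 (-0.40 and -0.39), on total counts (-0.32), within the libraries numbered 7 to 10 (-0.68) and within the other 10 (-0.37). Daglb, a diglyceride lipase, rose by 0.35 (adjusted p = 0.0038), with 0.19 and no call within the libraries numbered 7 to 10 and 0.40 within the other 10. Pnpla7, a lysophospholipase, was called higher (0.29, adjusted p = 0.045), but the call was lost when any 1 library other than KO3, Ctrl3 or Ctrl4 was left out (0.25 to 0.30).

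Among 14 tested genes of the droplet coat and droplet budding, 4 fell, 2 rose and 8 were not called (median -0.02). The balance turned with the scaling here too, with 4 lower and 5 higher on total counts, and was 4 and 0 within the libraries numbered 7 to 10. Plin3, the perilipin that moves between cytosol and droplets, fell to 160 ± 11.7 CPM in KO, against 251 ± 32.3 CPM in Ctrl libraries (-0.65, adjusted p = 9.3e-06). Fitm1 and Fitm2, membrane proteins of droplet formation, fell by 0.62 (adjusted p = 1.5e-04) and 0.37 (adjusted p = 4.5e-04) on the log2 scale. Mgst3, a microsomal glutathione transferase, fell by 0.44 (adjusted p = 0.0046). Spg20 and Aup1, a pair of droplet-associated proteins linked to ubiquitination, rose by 0.59 (adjusted p = 4.4e-04) and 0.25 (adjusted p = 0.0062). Within the libraries numbered 7 to 10 neither was called, with 0.33 for Spg20 and 0.11 for Aup1, beside 0.68 and 0.29 within the other 10. Plin1, the perilipin of adipocytes, was at 0 in all 14 libraries.

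Among 18 tested genes of triglyceride synthesis, 6 fell, 0 rose and 12 were not called (median -0.10). Acsl6, an acyl-CoA synthetase, fell to 3.63 ± 0.442 CPM in KO, against 12.6 ± 2.43 CPM in Ctrl libraries (-1.79, adjusted p = 9.9e-08). Gpd1, which makes glycerol 3-phosphate, fell to 68.1 ± 9.50 CPM in KO, against 135 ± 14.6 CPM in Ctrl libraries (-0.99, adjusted p = 7.3e-07). Lpin1, the phosphatidate phosphatase upstream of the Dgat enzymes, fell by 0.59 (adjusted p = 4.1e-05), and Acsl1, the main acyl-CoA synthetase of the heart, fell by 0.40 (adjusted p = 7.9e-04). The count of 0 higher by edgeR was 1 at an unadjusted p under 0.05, 0 by DESeq2 and 3 on total counts.

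Among 18 tested genes of lipolysis signalling, 6 fell, 0 rose and 12 were not called (median -0.09). Akt2 fell by 0.29 (adjusted p = 7.2e-04), the phosphodiesterase Pde3a by 0.57 (adjusted p = 0.0010), and the protein kinase A subunits Prkaca and Prkar2a by 0.39 (adjusted p = 0.0025) and 0.26 (adjusted p = 0.016). The count of 0 higher by edgeR was 1 at an unadjusted p under 0.05 and 0 by DESeq2. On total counts 3 of this list were called lower and 3 higher, and Prkar2a was not called (-0.12), nor was it within the libraries numbered 7 to 10 (-0.31).

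Among 29 tested heart genes known to respond to PPAR receptors, 16 fell, 1 rose and 12 were not called (median -0.37). Ucp2, a mitochondrial carrier, fell to 67.5 ± 15.2 CPM in KO, against 174 ± 48.3 CPM in Ctrl libraries (-1.37, adjusted p = 1.6e-05). The β-oxidation enzymes Acaa2, Hadhb and Decr1 fell by 0.73 (adjusted p = 3.6e-05), 0.63 (adjusted p = 5.4e-05) and 0.58 (adjusted p = 2.3e-04). Acot2, a mitochondrial acyl-CoA thioesterase, was the 1 gene that rose (0.65, adjusted p = 0.0046). Ppara, the receptor itself, averaged 47.6 ± 8.88 CPM in KO and 61.5 ± 12.4 CPM in Ctrl libraries (-0.38, adjusted p = 0.049), a call lost when any 1 library other than KO1, KO6, Ctrl4 or Ctrl6 was left out (-0.30 to -0.39 where lost), on total counts (-0.24), and within the libraries numbered 7 to 10 (-0.30) or the other 10 (-0.42) alone. Pparg had a log2 fold change of 0.04 and was not called.

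**Figure D5:**
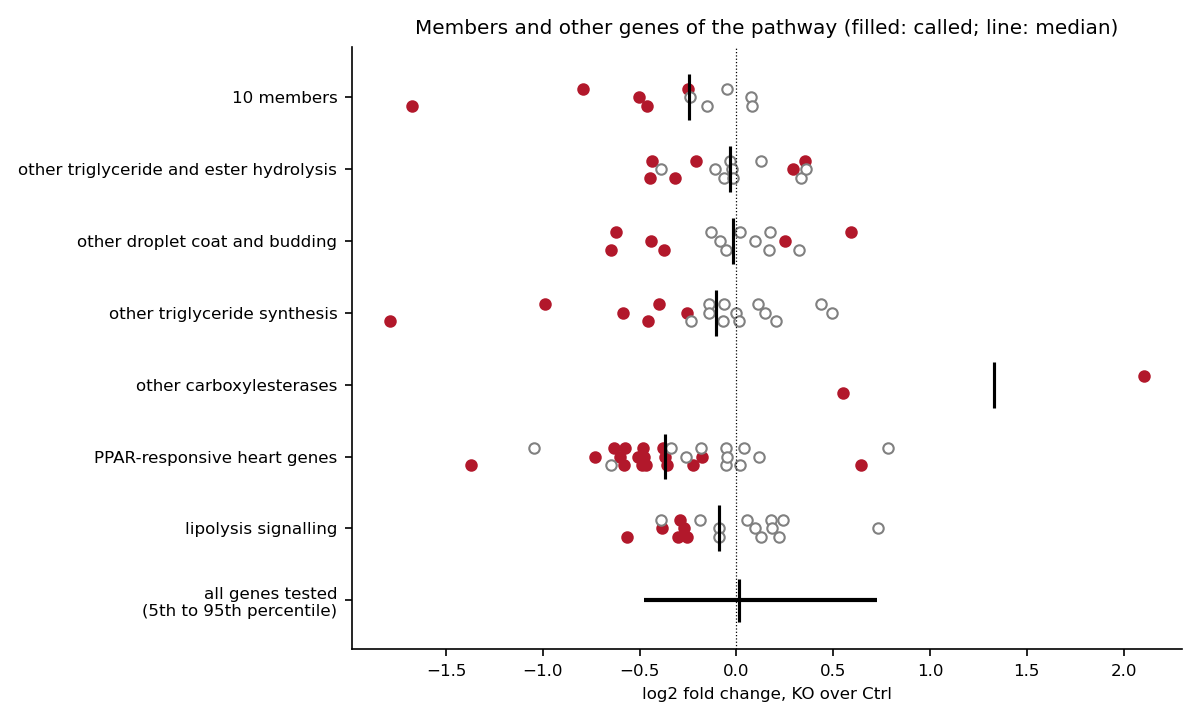
Log2 fold change (KO over Ctrl, x axis) of the 10 members and of each tested gene of the 6 other lists; filled points were called, open points were not, and vertical lines are medians. The bottom line spans the 5th to the 95th percentile of all genes tested (-0.48 to 0.73). Of the members, Ces1d (-1.68), Dgat2 (-0.79) and Plin5 (-0.50) lie below that range. Genes of the other lists do so too, among them Acsl6 (-1.79) and Ucp2 (-1.37).

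Droplet genes are abundant in adipocytes, so adipocyte markers were examined beside these results. Plin1, Retn, Lep, Cfd and Adrb3 were at 0 in all 14 libraries, Adipoq and Ucp1 had 1 read each and Cidec had 2 reads. The summed level of the 10 adipocyte markers was 36.8 to 58.4 CPM in KO and 44.3 to 62.6 CPM in Ctrl libraries, nearly all of it from Cidea (4133 reads) and Thrsp (1379 reads), and 1 of the 2 tested, Thrsp, was called lower in KO. Summed endothelial markers were 241 to 940 CPM in KO and 301 to 809 CPM in Ctrl libraries, and summed fibroblast markers 170 to 1289 CPM and 200 to 640 CPM, with 0 of 10 and 0 of 9 tested genes called by edgeR, 0 by DESeq2 and 0 at an unadjusted p under 0.05. Pericyte and smooth muscle markers summed to 1415 to 2253 CPM in KO and 990 to 1289 CPM in Ctrl libraries. Of these, 3 of 8 were called higher (Cspg4, Acta2 and Tagln) and 1 lower (Abcc9). Most of that sum came from Acta2, at 1211 ± 321 CPM in KO and 696 ± 108 CPM in Ctrl libraries. Pdgfrb, Rgs5, Kcnj8 and Myh11 were not called. Atrial markers summed to 494 to 2060 CPM in KO and 270 to 957 CPM in Ctrl libraries, with 1 of 4 (Nppa) called higher. Most of the atrial sum came from Nppa, at 1349 ± 637 and 468 ± 200 CPM. Myl7, Myl4 and Sln had negative log2 fold changes and were not called. The part of these other markers in the members' values was not tested.

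The genes whose pattern over the 14 libraries was most like that of Ces1d were named by the smallest root mean square difference in log2 CPM, each gene taken relative to its Ctrl mean, among 8483 genes. They were Tmod4 (0.26), Hnmt (0.28), Phkg1 (0.31), Plekhh1 (0.38) and Pla2g5 (0.39). Their log2 fold changes were -1.62, -1.49, -1.62, -1.37 and -1.24 in that order, beside -1.68 for Ces1d. This measure largely follows the KO against Ctrl fold change, the contrast that chose the members, so the places are a description only. Tmod4, a tropomodulin that caps actin filaments, averaged 7.19 ± 1.32 CPM in KO and 22.2 ± 4.23 CPM in Ctrl libraries. Pla2g5, a secreted phospholipase, averaged 33.9 ± 5.06 CPM in KO and 80.2 ± 8.81 CPM in Ctrl libraries. Without the libraries numbered 7 to 10, Tmod4, Hnmt and Phkg1 remained among the 5 nearest. Of the other members Dgat2 was nearest, at place 51 with a difference of 0.65, followed by Plin5 at place 360 (0.91) and Plin4 at place 400 (0.92).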

How the data were processed

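Poly(A) RNA of sorted mouse cardiomyocytes (7 KO, 7 Ctrl) was made into libraries with SMART-Seq v4 and Nextera XT, per the labels. The deposited count table holds whole-number reads per gene, not normalized. The submitters' processing notes name STAR, featureCounts, DESeq2, DESeq and build mm10; no versions, gene annotation or strandedness of the counting are stated. Separate animals are not stated for the 14 libraries, so the p-values reflect how these samples vary, and part of that variation may be technical.

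The main test was edgeR 4.0.16 (R 4.3.3): quasi-likelihood F test, two-sided, filterByExpr (minimum count 10), TMM scaling, no covariates, Benjamini-Hochberg adjustment over 11170 genes, called at an adjusted p under 0.05. It was tested on simulated data. CPM uses TMM-scaled library sizes, and TPM uses the exonic lengths of the count table. SE is the log2 fold change divided by the root of F. Likeness to Ces1d used log2 CPM (prior count 2) of genes with a mean of at least 3. DESeq2 1.42.0 was an alternative, as were other size factors, no filter, a replicate term, subsets of libraries and total-count scaling. Replicate counts differed by more than sampling noise (chi-square per degree of freedom 4.58 to 26.9). Reads carry no molecular identifiers and no strand.

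Per the file headers, the authors' deposited table gives a mean signal (counts divided by size factors), log2 fold changes, a score (the Wald statistic) and p-values, of which log2 fold changes and the calls from adjusted p-values are quoted.

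The members, gene lists and markers were chosen with earlier results of these data known. Named genes were Ryr2, the members, up to 4 genes per list with the smallest p, every gene behind a count of at most 5, Abhd5, Ces1 genes with a count, Ppara, Pparg and the 5 genes most like Ces1d; the markers and the overlapping genes are named beside results they touch. Promoter sequences came from RefSeq.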

Additional observations from a re-analysis of the deposited data

Results flagged for a closer look

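Single libraries stood far from the rest of their group in 5 of 104 groups of values examined, where chance alone gives about 1 in 20. Ces1d reached 367 CPM in Ctrl7, and the next Ctrl library had 272 CPM. Esd reached 211 CPM in KO7, and the next KO library had 169 CPM. Prkaca reached 614 CPM in Ctrl1, and the next Ctrl library had 504 CPM. Pnpla7 was lowest in KO3, at 25.9 CPM, and the next KO library had 35.9 CPM. The TPM ratio of Lipe to Pnpla2 was lowest in KO7, at 0.0397, and the next KO library had 0.0583.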

How the results depend on the processing

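Under the alternatives tried, 214 of 220 fold changes of members kept their direction and their side of the threshold or were uncalled in both fits. Over all named genes, 0 of 968 values reversed a call, 43 lost a call and 4 gained one. Most of these fits left out 1 library and so share most of their data with the main fit. With each library left out in turn, 2743 to 3173 genes were called (1284 to 1527 lower, 1433 to 1664 higher), 5 to 6 members, and 35 to 45 genes of the pathway lists, and the log2 fold change of Ryr2 was -1.18 to -1.05. Within the 4 libraries numbered 7 to 10, 1466 genes were called (777 lower, 689 higher), with fewer samples; 5 members were called there too, with G0s2 (-0.42) called and Plin4 (-0.33) not. With total counts in place of TMM, an alternative chosen after seeing the data, 852 genes were called lower and 3064 higher, and the members were 4 lower and 1 higher, by the shift of the scale given above. The DESeq2 Wald test called 6 members, adding Plin2 (-0.16), which was also called without KO2 (-0.18); the cause was not tested. The labels do not say what a replicate number shares. The deviations of same-numbered libraries correlated at 0.06 to 0.53, over 0.1 in 6 of 7 pairs; since all 7 were required, the numbers were not taken as pairs. KO3, KO7 and Ctrl7 correlated best with their own number and the other libraries did not. A few such matches also arise between unrelated numbers, so nothing about pairs is read from them. Replicate numbers 4 and 5, which correlated at 0.53 each, are the libraries numbered 7 to 10 that stood apart by their markers. Replicate number 7 correlated at 0.51. With a replicate block, 3770 genes, 5 members and 50 genes of the pathway lists were called. Of the 5 genes most like Ces1d, 3 were the same without libraries 7 to 10. The fewest reads behind a member in 1 library were 121, for Lipe.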
